A study of Mus musculus with 4 samples.

Results

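Genes that carry, convert, hold, sense or answer thyroid hormone were read in the brain cortex of aged SAMP8 mice given TCQA or water. They were the 9 probe sets, of 22206 gene probe sets in the table, whose platform symbol was Slc16a10, Slco1c1, Dio2, Dio3, Crym, Thra, Thrb, Klf9 or Hr, and each symbol had 1 probe set. SAMP8 is an inbred mouse strain that ages early. All mice were males kept singly for 4 months from the age of 7 months. The TCQA group was then dosed by mouth with TCQA, named in the labels by this abbreviation only, at 5 mg/kg each day for 1 month from 11 months of age, and the control group was given MilliQ water in its place. Each group had 2 Clariom S mouse arrays. Whether each array stands for its own mouse is not in the labels, so p-values here measure spread between samples that may be technical repeats.

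Thyroid hormone reaches the brain mainly as thyroxine, a prohormone. Transporters of the blood-brain barrier and of glia carry it in, the astrocyte enzyme encoded by Dio2 removes an outer-ring iodine to make the active triiodothyronine, and the enzyme encoded by Dio3 removes an inner-ring iodine and so inactivates both. In neurons triiodothyronine binds the nuclear receptors encoded by Thra and Thrb, which sit on DNA as partners of retinoid X receptors and switch target genes such as Klf9 and Hr.

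Most of these genes showed small differences between the cortex of TCQA-treated and control mice. Of the 9 genes, 7 differed by less than 0.15 in mean log2 signal, and for each of those 7 the arrays of the groups overlapped. Thra and Slc16a10 were lower on both TCQA arrays than on both control arrays, Thra by 0.39 and Slc16a10 by 0.60 in log2 signal (TCQA minus control -0.39 and -0.60). By limma, 0 of the 9 passed after Benjamini-Hochberg adjustment across the whole array (adjusted p 0.799 to 0.990), and 0 had an unadjusted p under 0.05. Over all 22206 gene probe sets 0% passed the adjustment, 6.24% had an unadjusted p under 0.05, and 0.374% met the depositors' criterion (a fold change over 2 as well as that p), which 0 of the 9 met.

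The arrays were alike, with correlations across gene probe sets of 0.991 to 0.993. The values are log2 signals that the authors normalized, so a difference of 1 is a 2-fold difference. Each difference was taken between arrays for the same probe set. Levels of different probe sets were compared to mark dim signal and to choose the brighter ones. The median negative control probe set, used as a mark of dim signal, lay at 7.17 to 7.32 on the 4 arrays, and Dio3, Hr and Slc16a10 lay under it in both groups. The cortical label was set against this mark with marker lists. Of 6 measured markers of cortical excitatory neurons, 5 had a mean above it in at least 1 group. So did 4 of 4 striatal markers, 5 of 6 thalamic markers, and 11188 of all 22206 gene probe sets. Whether the striatal and thalamic markers came from tissue of those regions was not tested. Markers of tanycytes and hypothalamus were under the mark in both groups in 7 of 7. The hypothalamic neuropeptide gene Pmch, outside that list and named after its values were seen, was above the mark on TCQA replicate 2 alone. Its log2 signals were 5.43 and 10.32 with TCQA and 5.96 and 5.37 in control. Gh and Gabrq, named in the same way, were above the mark on that array alone too, at 8.31 and 8.49. The choroid plexus gene Ttr, whose product also carries thyroxine, ranged from 7.49 on control replicate 1 to 16.42 on control replicate 2. In tissue RNA, fewer cells of a type and less RNA per cell cannot be told apart.

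The promoters of 6 of the 9 genes were found in the RefSeq table (GRCm38.p6), as 7 windows from 250 bases before to 50 bases after a start site, and 4 windows are shown, 5′ to 3′ on the strand of the gene. Dio2 is shown for the cyclic AMP response element, Thrb for the core motif of thyroid hormone receptor binding, Klf9 as a hormone target, and Slc16a10 as the gene with the largest difference. Capitals mark the motifs searched on both strands: AGGTCA, the core receptor motif, its direct repeat with a spacer of 4 bases, TGACGTCA, the cyclic AMP response element, and TATAAA, the TATA box.
Dio2: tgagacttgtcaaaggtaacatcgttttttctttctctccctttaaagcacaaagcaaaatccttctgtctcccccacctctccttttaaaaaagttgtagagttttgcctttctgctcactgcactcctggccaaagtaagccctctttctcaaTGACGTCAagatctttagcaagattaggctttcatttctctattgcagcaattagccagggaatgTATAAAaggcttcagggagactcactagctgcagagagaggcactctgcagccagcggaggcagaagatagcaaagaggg
Thrb: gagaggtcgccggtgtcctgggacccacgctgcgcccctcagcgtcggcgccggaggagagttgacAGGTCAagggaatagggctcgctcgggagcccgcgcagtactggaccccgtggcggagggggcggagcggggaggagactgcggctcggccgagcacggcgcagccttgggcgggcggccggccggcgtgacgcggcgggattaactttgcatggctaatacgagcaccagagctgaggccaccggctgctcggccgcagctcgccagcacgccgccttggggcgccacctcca
Klf9: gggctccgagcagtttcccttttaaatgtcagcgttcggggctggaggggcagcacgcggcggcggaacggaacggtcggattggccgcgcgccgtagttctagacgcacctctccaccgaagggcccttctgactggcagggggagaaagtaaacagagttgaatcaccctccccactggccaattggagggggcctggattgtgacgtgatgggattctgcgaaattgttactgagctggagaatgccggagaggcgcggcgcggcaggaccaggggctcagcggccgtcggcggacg
Slc16a10: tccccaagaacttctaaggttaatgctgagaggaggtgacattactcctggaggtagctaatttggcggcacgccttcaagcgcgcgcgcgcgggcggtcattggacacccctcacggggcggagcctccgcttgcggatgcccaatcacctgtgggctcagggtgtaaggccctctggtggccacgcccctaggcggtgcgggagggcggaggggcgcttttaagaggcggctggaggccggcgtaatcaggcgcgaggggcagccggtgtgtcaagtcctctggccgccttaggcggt

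The Dio2 window (chr12:90738989-90739288, minus strand) held TGACGTCA from 95 to 88 bases upstream of the start and TATAAA from 30 to 25 bases upstream. The share of all 32851 promoter windows with TGACGTCA was 1.79%, and with TATAAA 13.6%. The Thrb window shown (chr14:17660710-17661009, plus strand), which belongs to the first of its 2 listed starts, held AGGTCA from 184 to 179 bases upstream, a motif present in 16.3% of all windows. The direct repeat was in 0.0152% of all windows and in none of the 7 here. No searched motif was found in the Klf9 window (chr19:23140976-23141275, plus strand) or the Slc16a10 window (chr10:40142205-40142504, minus strand), which says only that these letters are not there. Both were rich in G and C, at 63.3% and 65.3% against 44.7% for Dio2 and a median of 52.7% over all windows, with 28, 26 and 3 CG pairs. A match describes the letters and is not evidence of binding.

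**Figure D1:**
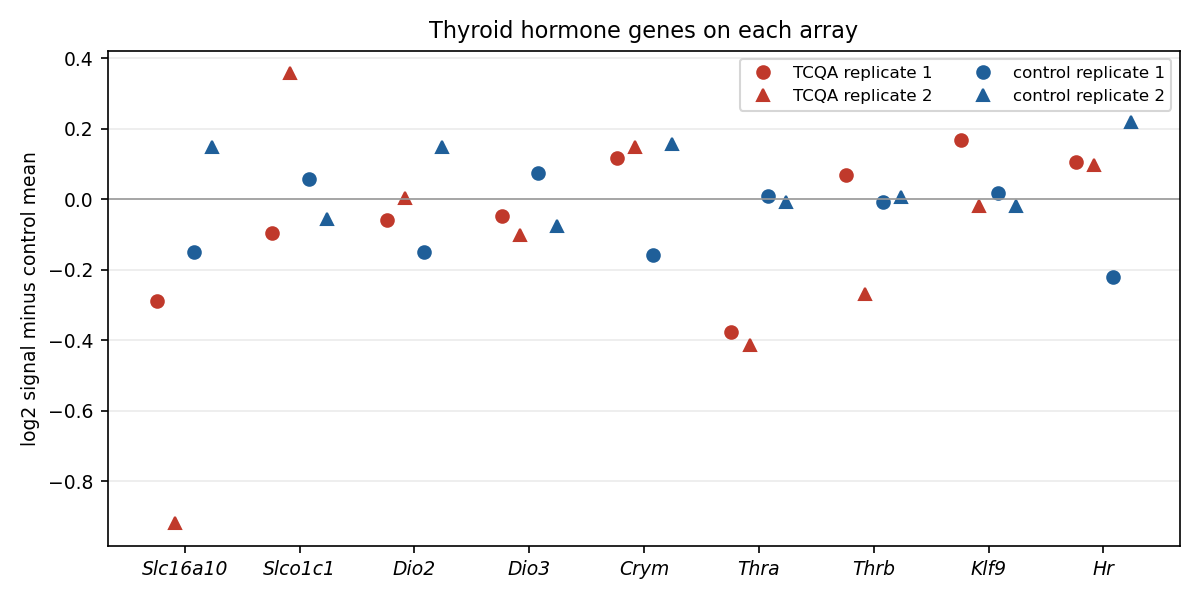
Log2 signal of each of the 9 thyroid hormone genes on each array, minus the mean of the control arrays of that gene (y axis, log2 units). Red marks are TCQA and blue marks control arrays, circles are replicate 1 and triangles replicate 2; only for Thra and Slc16a10 are both red marks below both blue marks.

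Among the transporters, Slc16a10 encodes a carrier of aromatic amino acids that also moves triiodothyronine. Its log2 signals were 5.24 and 4.61 with TCQA and 5.38 and 5.68 in control. Both TCQA arrays were lower, but TCQA replicate 1 was closer to control replicate 1 than to TCQA replicate 2. The mean was 4.92 ± 0.45 with TCQA and 5.53 ± 0.21 in control (± SD over 2 arrays a group), lower by 1.52-fold. The difference of -0.60 (SE 0.26) had a 95% confidence interval of -1.24 to 0.03 and a limma adjusted p of 0.799. It was -0.29 without TCQA replicate 2 and -0.92 without TCQA replicate 1. All 4 values lay under the negative control median.

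Slco1c1 encodes the organic anion transporter that takes up thyroxine at the blood-brain barrier. Its log2 signals were 12.64 and 13.09 with TCQA and 12.79 and 12.68 in control. TCQA replicate 2 was highest and TCQA replicate 1 lowest, so the treated arrays enclosed the control arrays. The difference was 0.13 (SE 0.22, 95% confidence interval -0.39 to 0.65), and it went from -0.094 without TCQA replicate 2 to 0.36 without TCQA replicate 1. Markers of endothelium, a cell type that expresses Slco1c1, had a higher mean with TCQA in 6 of 8, and the arrays of those 6 did not overlap, where 18.9% of all gene probe sets were higher with no overlap. The 2 with a lower mean were Pecam1, at -0.26 (SE 0.18) with no overlap, and Cdh5, at -0.01 (SE 0.17). The mean log2 level of this list was 10.20 and 10.25 with TCQA and 9.999 and 10.02 in control. The defining endothelial gene Cldn5 differed by 0.15 (SE 0.18), the glucose transporter gene Slc2a1 by 0.57 (SE 0.19) and Ly6c1 by 0.46 (SE 0.18), the last 2 with an unadjusted p under 0.05 and 0 of 8 passing the adjustment by limma. The part of these markers in the Slco1c1 values was not tested.

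The other transporters fixed for the pathway were 7, of which 6 had a named probe set. Of these, 1 had an unadjusted p under 0.05 and 0 passed the adjustment, and their median difference was 0.26 against 0.01 over all gene probe sets. The gene with the low p was Slco1a4, another organic anion transporter of brain endothelium, at 12.70 and 12.87 with TCQA and 12.35 and 12.28 in control. The TCQA arrays of Slco1a4 were both above the control arrays, by 0.47 on average (SE 0.18, limma adjusted p = 0.787). Slc7a5, the light subunit of the large neutral amino acid transporter that also carries thyroid hormone, stood at 11.01 and 10.87 with TCQA and 10.65 and 10.25 in control. That is a difference of 0.49 (SE 0.21), with no overlap, while its heavy-chain partner Slc3a2 differed by 0.14 (SE 0.17). Leaving out control replicate 2 made the Slc7a5 difference 0.29, and leaving out control replicate 1 made it 0.69. Slc7a8, the related light subunit, went the other way at -0.52 (SE 0.26), and by -0.18 without TCQA replicate 2. Slc17a4 had a difference of 0.39 (SE 0.30) from levels under 4 in log2 signal. The groups of both light subunits were therefore apart in opposite directions, and neither passed the test.

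Dio2, the activating deiodinase of astrocytes, was at 11.43 and 11.49 with TCQA and 11.34 and 11.63 in control. Both TCQA arrays lay between the control arrays. The mean was 11.46 ± 0.04 with TCQA and 11.49 ± 0.21 in control (± SD over 2 arrays a group). The difference of -0.03 (SE 0.19) had a 95% confidence interval of -0.49 to 0.43, which leaves out a 2-fold difference in either direction. Its size was larger than that of 9.16% of all gene probe sets.

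The surroundings of Dio2 were read beside it. Astrocyte markers had a higher TCQA mean in 7 of 8, and 5 of 8 were higher with no overlap, against 18.9% of all gene probe sets. Their mean log2 level was 12.84 and 13.00 with TCQA and 12.66 and 12.73 in control, and the water channel gene Aqp4 differed by 0.38 (SE 0.18). None of the 8 had an unadjusted p under 0.05 by limma (0 of 8). Dio2 is also known as a gene that cyclic AMP signalling can switch on. Of 11 immediate early genes, many of which respond to the same signal, 11 had a lower TCQA mean, with a median difference of -1.32. By limma 8 had an unadjusted p under 0.05. Over all 22206 gene probe sets, 10857 had a lower TCQA mean and 6.24% an unadjusted p under 0.05. Fos was at 8.23 and 8.10 with TCQA and 10.01 and 8.95 in control. For 11 of 11 the top array was control replicate 1, whereas for Dio2 that array was the lowest. Whether these markers and genes bear on Dio2 was not tested.

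Dio3, the inactivating deiodinase, was dim at 3.64 and 3.58 with TCQA and 3.76 and 3.61 in control. The arrays overlapped, and the difference was -0.07 (SE 0.18, 95% confidence interval -0.50 to 0.35). Dio1, the deiodinase of liver and kidney, was under the negative control median too, with a difference of -0.08 (SE 0.27). Genes that control the stability of the Dio2 protein differed little: Usp33 and Usp20, deubiquitinating enzymes, by 0.13 (SE 0.21) and -0.13 (SE 0.18), and the ubiquitin ligase gene Marchf6 by 0.15 (SE 0.17). Of this list of 5 genes, 0 had an unadjusted p under 0.05 by limma.

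Deiodinases hold the amino acid selenocysteine, which needs its own machinery. The arrays of the groups did not overlap for 5 of 5 genes of that machinery, 3 higher and 2 lower with TCQA, where 36.6% of all gene probe sets did not overlap. Eefsec, the elongation factor that brings selenocysteine to the ribosome, was at 8.59 and 8.52 with TCQA and 9.59 and 9.39 in control. This difference of -0.93 (SE 0.18) had an unadjusted p of 0.00187 and a limma adjusted p of 0.787. Pstk, the kinase that prepares the transfer RNA, went the other way, at 9.99 and 10.11 with TCQA and 9.34 and 9.47 in control. Its difference was 0.65 (SE 0.18). Secisbp2, which binds the selenocysteine insertion element of these messages, differed by -0.33 (SE 0.18). Sephs2, which makes the selenium donor, differed by 0.31 (SE 0.17) but lay under the negative control median in both groups. The list thus had no common direction, and 0 of its genes passed the adjustment.

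Crym encodes mu-crystallin, a cytosolic protein that binds triiodothyronine. Its log2 signals were 9.30 and 9.33 with TCQA and 9.03 and 9.34 in control. The TCQA arrays were within 0.03 of each other and lay between the control arrays. The difference was 0.13 (SE 0.19, 95% confidence interval -0.33 to 0.60), and it was -0.025 without control replicate 1. Crym is expressed in neurons of cortex, hippocampus and striatum. The mean log2 level of the striatal list was 12.26 and 12.74 with TCQA and 12.58 and 12.66 in control, and that of the hippocampal list 7.32 and 7.49 with TCQA and 7.41 and 7.34 in control. The part of these regions in the Crym values was not tested.

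**Figure D2:**
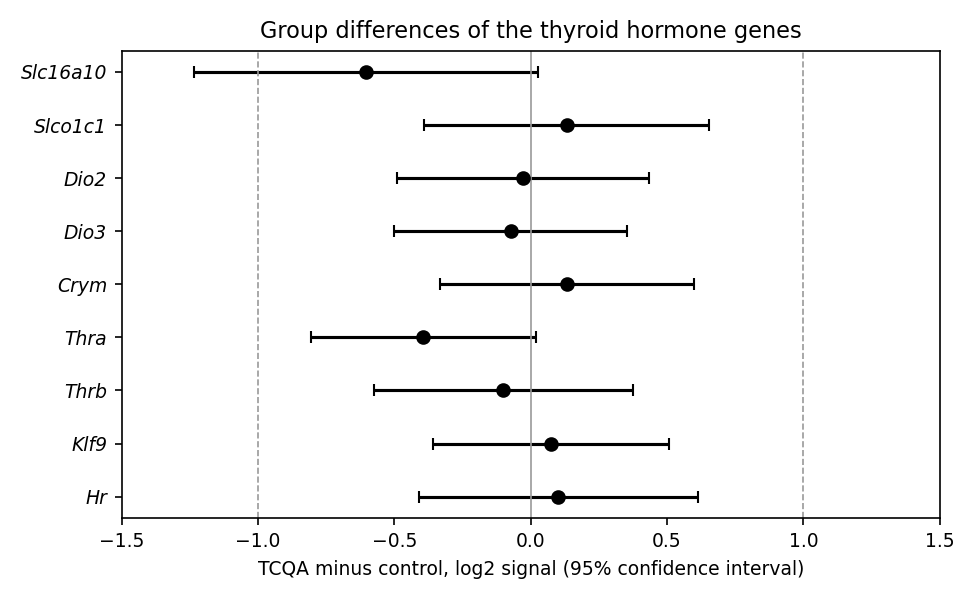
Difference in mean log2 signal, TCQA minus control, for each of the 9 genes (points) with the 95% confidence interval of the limma fit (bars); dashed lines mark a 2-fold difference. All 9 intervals include 0, and 8 of the 9 leave out a 2-fold difference in either direction, the exception being Slc16a10. Among the 8, Dio3 and Hr lay under the negative control median in both groups, so their intervals describe dim signal.

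Of the receptors, Thra, the form that predominates in most of the brain, was at 14.83 and 14.79 with TCQA and 15.22 and 15.20 in control. Both pairs were tight, with gaps of 0.04 and 0.02 within the groups, and the TCQA pair lay wholly below. Thra was the one gene of the 9 whose difference exceeded the larger gap within a group. The mean was 14.81 ± 0.03 with TCQA and 15.21 ± 0.01 in control (± SD over 2 arrays a group), lower by 1.31-fold. The difference of -0.39 (SE 0.17) had a 95% confidence interval of -0.81 to 0.02, an unadjusted p of 0.0583 and a limma adjusted p of 0.799. An unmoderated fit, which takes the spread of Thra alone, gave an unadjusted p of 0.00267 and an adjusted p of 0.740. Leaving out each array in turn kept the difference between -0.41 and -0.38. Thra and Slc16a10 were the 2 of 9 genes that were lower with no overlap, against 17.8% of all gene probe sets, so this count was near the background. The difference of Thra was larger in size than that of 85.6% of gene probe sets, and that of Slc16a10 than 95.9%.

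Thra overlaps the clock gene Nr1d1, which is read from the other strand, by 1075 bases in the RefSeq annotation. Nr1d1, named after its values were seen, was at 12.29 and 12.38 with TCQA and 12.50 and 12.32 in control. These arrays overlapped, and the difference was -0.08 (SE 0.18). Where the probes of Thra lie relative to the overlap, and which splice forms they read, was not analysed here.

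Thrb, the other receptor, was at 11.54 and 11.20 with TCQA and 11.46 and 11.47 in control. The control arrays were nearly equal and the TCQA arrays lay on either side of them. The difference was -0.10 (SE 0.20, 95% confidence interval -0.57 to 0.37). It was 0.070 without TCQA replicate 2 and -0.27 without TCQA replicate 1. Whether Thra and Thrb differed in their response was not tested.

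The partners and cofactors of the receptors gave few differences. The retinoid X receptor genes Rxra, Rxrb and Rxrg differed by -0.14 (SE 0.18), -0.32 (SE 0.18) and 0.19 (SE 0.19). Of these Rxrb alone had TCQA arrays below both control arrays, at 8.23 and 8.43 against 8.64 and 8.67. The corepressor complex, which the receptors recruit without hormone, had 4 measured genes of 6 listed, with differences from -0.15 to 0.14. That of its histone deacetylase gene Hdac3 was -0.15 (SE 0.18). The 6 coactivator genes differed by -0.33 to 0.05, with the acetyltransferase gene Crebbp at 14.21 and 14.12 with TCQA and 14.56 and 14.43 in control. In these 3 lists 0 of 13 genes had an unadjusted p under 0.05 by limma.

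**Figure D3:**
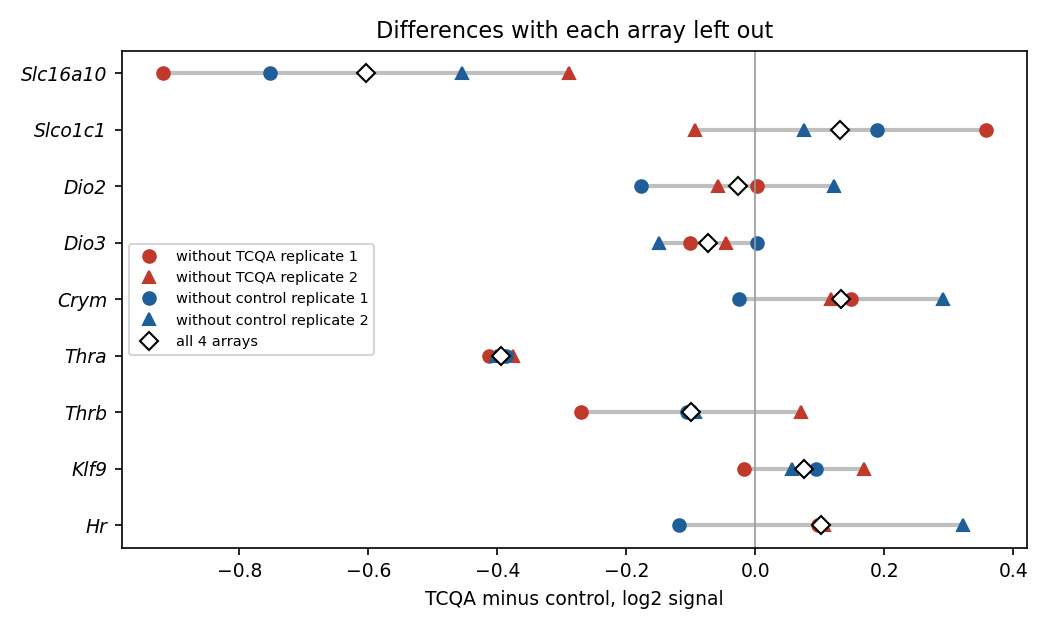
Difference in mean log2 signal, TCQA minus control, for each of the 9 genes with all 4 arrays (diamonds) and with each array left out in turn (colored marks, joined by a grey line). Thra stays between -0.41 and -0.38 and Slc16a10 between -0.92 and -0.29, while the marks of the other 7 genes fall on both sides of 0.

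Klf9, a zinc finger transcription factor induced by triiodothyronine in neurons, was at 13.86 and 13.67 with TCQA and 13.71 and 13.67 in control. TCQA replicate 1 was above the other arrays, which were within 0.04 of each other. The difference was 0.08 (SE 0.18, 95% confidence interval -0.36 to 0.51). Klf9 is a target of glucocorticoids as well. Among 8 glucocorticoid-responsive genes, 7 had a higher TCQA mean, 3 an unadjusted p under 0.05 and 0 an adjusted p under 0.05, with a median of 0.39. Pdk4, a kinase that restrains pyruvate dehydrogenase, was at 8.70 and 8.47 with TCQA and 7.62 and 7.63 in control, and Fkbp5, a chaperone of the glucocorticoid receptor, at 12.01 and 12.22 with TCQA and 11.64 and 11.60 in control. The differences of Pdk4 and Fkbp5 were 0.96 (SE 0.18) and 0.50 (SE 0.18). Zbtb16, a further target, differed by 0.52 (SE 0.20). Klf9 had no such separation, and whether it differed from these genes was not tested.

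**Figure D4:**
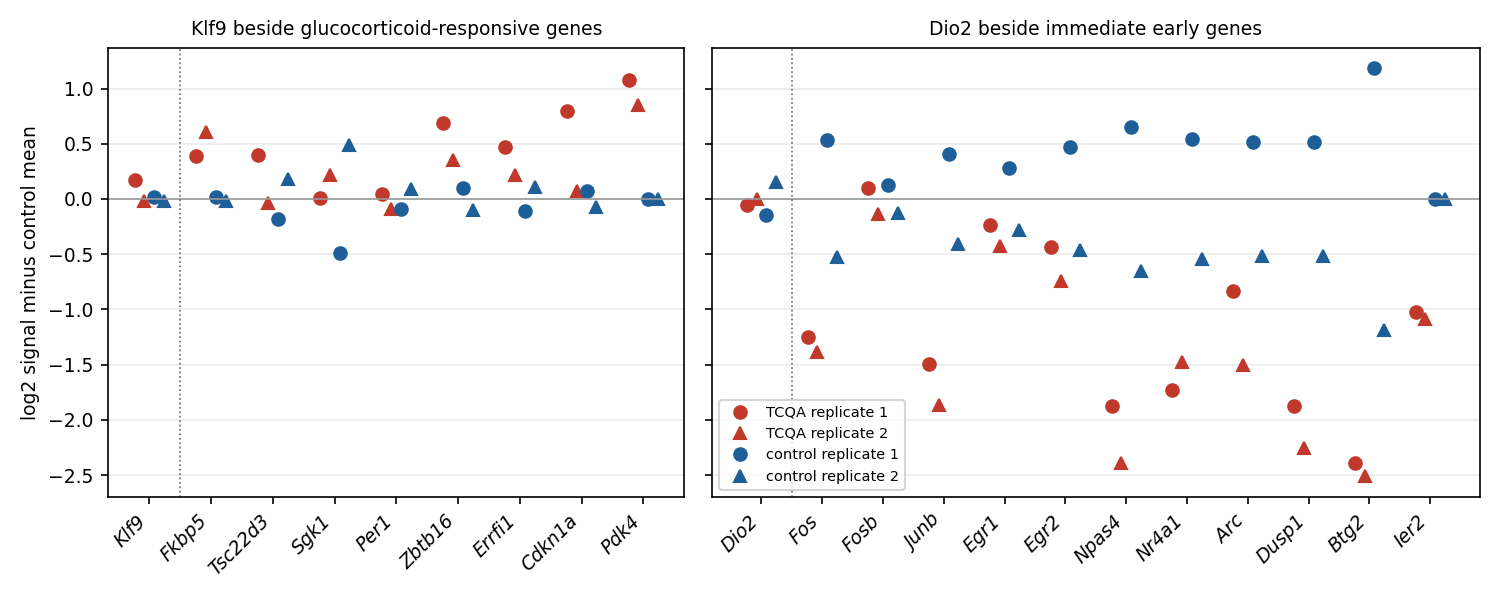
Log2 signal on each array minus the control mean of each gene (y axis, log2 units), for Klf9 with 8 glucocorticoid-responsive genes (left) and Dio2 with 11 immediate early genes (right); red marks are TCQA and blue marks control arrays. The marks of Klf9 and Dio2 lie close to 0, while Pdk4 and Fkbp5 are higher on both TCQA arrays and control replicate 1 is at the top for all 11 immediate early genes.

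Hr encodes hairless, a corepressor that thyroid hormone induces in the brain. It was dim, at 5.57 and 5.56 with TCQA and 5.24 and 5.69 in control. The TCQA arrays were nearly equal and lay between the control arrays. The difference was 0.10 (SE 0.21, 95% confidence interval -0.41 to 0.61), and it was -0.12 without control replicate 1.

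Other genes known to be raised by thyroid hormone in brain showed no common direction. Of 12 listed, 11 were measured, 7 with a higher and 4 with a lower TCQA mean, and their median was 0.10. The one with an unadjusted p under 0.05 was Nrgn, whose product neurogranin binds calmodulin in dendrites, at 15.34 and 14.89 with TCQA and 15.96 and 15.67 in control. The Nrgn difference was -0.70 (SE 0.23, limma adjusted p = 0.787), and -0.47 without TCQA replicate 2. Markers of cortical excitatory neurons, which express Nrgn, had a median of -0.16, with a mean log2 level of 11.72 and 11.22 with TCQA and 11.72 and 11.50 in control, and their part in the Nrgn value was not tested. The morphogen gene Shh and the neurofilament gene Nefh differed by 0.18 (SE 0.17) and 0.18 (SE 0.18), and the axonal adhesion gene Cntn2 by -0.18 (SE 0.18).

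Of 10 genes listed as lowered by thyroid hormone, 8 were measured, 4 with a higher and 4 with a lower TCQA mean. An unadjusted p under 0.05 by limma was found for 2, both higher with TCQA. Whether the hormone lowers the listed genes in cortex was not tested. Trh, the precursor of the hypothalamic hormone at the head of the thyroid axis, was at 7.54 and 7.89 with TCQA and 5.49 and 5.66 in control. This difference of 2.14 (SE 0.20) had the smallest limma adjusted p of all gene probe sets, 0.697. Mc4r, a melanocortin receptor, was at 6.01 and 6.23 with TCQA and 5.29 and 5.79 in control, a difference of 0.57 (SE 0.23) that was 0.32 without control replicate 1, with an unadjusted limma p of 0.249. Mc4r and the control group of Trh lay under the negative control median. Hypothalamic and tanycyte markers lay under it in 7 of 7. Their mean log2 level was 5.53 and 6.07 with TCQA and 5.52 and 5.57 in control, TCQA replicate 2 being highest for 4 of the 7. The hypothalamic gene Pmch, outside this list, was at 5.43 and 10.32 with TCQA and 5.96 and 5.37 in control. Thalamic neuron markers had a higher TCQA mean in 6 of 6, at 9.77 and 10.43 with TCQA and 8.75 and 9.51 in control. The part of either region in the Trh values was not tested. Without TCQA replicate 2 the Trh difference was 1.97. The matrix gene Col6a2 differed by -0.43 (SE 0.18) and the link protein gene Hapln1 by 0.29 (SE 0.18).

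Among carriers and genes of the pituitary-thyroid axis, 6 of 7 measured had a higher TCQA mean. Of the 7, 5 were under the negative control median in both groups. Alb, the albumin gene, differed by 0.54 (SE 0.22), and Trhr, the receptor of the TRH peptide, by 1.07 (SE 0.58), with 6.65 and 8.01 with TCQA against 5.56 and 6.97 in control. Without control replicate 1 the Trhr difference was 0.36, and without control replicate 2 it was 1.77. For Alb, leaving out control replicate 2 gave 0.31 and leaving out control replicate 1 gave 0.78. Alb lay under the negative control median in both groups. Ttr had a difference of 1.65 (SE 2.65), which was -2.82 without control replicate 1. Over all 55 measured pathway genes beyond the 9, 7 had an unadjusted p under 0.05 by limma, against 6.24% of all gene probe sets. These were 5 higher and 2 lower. Among the 55, 0 passed the adjustment and the median difference was 0.10. Without TCQA replicate 2, 4 of the 55 had an unadjusted p under 0.05. Of the 7, Eefsec and Trh were the 2 that kept an unadjusted p under 0.05 whichever array was left out.

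**Figure D5:**
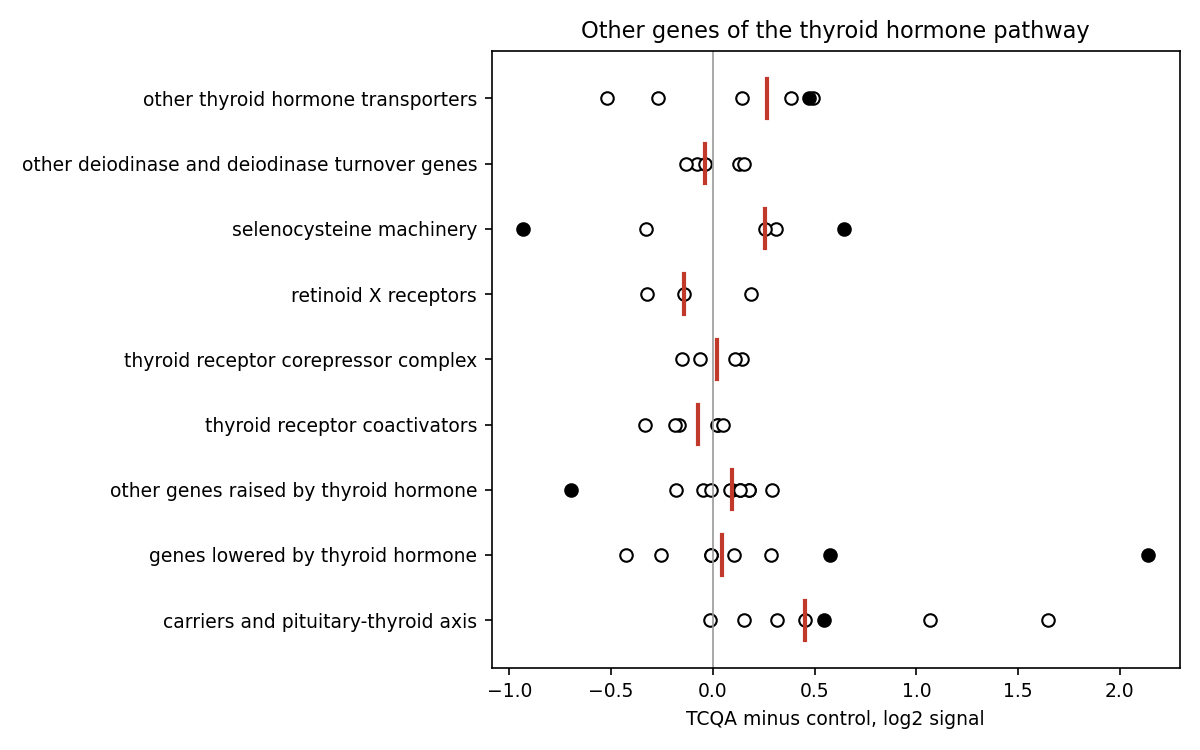
Difference in mean log2 signal, TCQA minus control (x axis), of the other genes of the pathway by list; each circle is a gene, filled where the unadjusted limma p was under 0.05, and red bars are list medians. The 7 filled circles are Slco1a4, Eefsec, Pstk, Nrgn, Trh, Mc4r and Alb.

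The genes whose 4 values were most like those of Slc16a10 and Thra, after each gene was centred on its own mean, were named by the smallest root-mean-square difference. For Thra they were Stk25, Ybx3 and Agap2, at 0.0171, 0.0211 and 0.0259 in log2 units. Stk25, a kinase gene, was at 11.41 and 11.35 with TCQA and 11.75 and 11.74 in control. Of 10048 genes compared, 465 came within 0.1 of Thra, so its pattern was shared by other genes. For Slc16a10 they were Ptprd, Vps8 and Ube2ql1, at 0.0756, 0.0840 and 0.0892, and 5 of 10049 genes came within 0.1. The cutoff of 0.1 is absolute, so these counts depend on how widely each gene varied, and they were not compared. With 4 arrays this likeness describes these samples only.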

How the data were processed

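The authors deposited log2 signals for each probe set on each array. Per the labels' protocols the authors amplified 100 ng of RNA and made the values with SST-RMA in the Transcriptome Analysis Console 4.0.2, and named limma, a detection cutoff of 0.05 and an area under the curve of at least 0.7. For the array annotation, the genome build was not given in the sources. Groups came from the sample titles. Of 28846 probe sets 6640 were controls, and 22206 entered the test, 19572 of them with 1 symbol through the platform annotation and 2634 unnamed here. The contrast of TCQA with control was fitted using limma 3.58.1 under R 4.3.3 (lmFit and eBayes, two-sided, 2 residual and 4.23 prior degrees of freedom), with Benjamini-Hochberg adjustment over all 22206. The number of arrays limits the precision; the median SE was 0.20. An exact permutation test of 2 against 2 cannot go below a p of 0.333. The fit was tested on simulated data. Members, lists and rules were chosen with earlier results of these data known. Named were the 9 members, up to 4 genes per list by smallest p, fixed checks, and the 3 genes most like each of the 2 members with the smallest p, among named genes at or above the median signal of 7.14. In a list the brightest probe set of a symbol counted. The titles number replicates 1 and 2 in both groups and do not say whether same-numbered arrays are paired. Listed symbols with no named probe set were not analysed here. No detection calls were used. Alternatives were centring, repeated quantile normalization, bright probe sets only, control probe sets kept, no variance moderation, an intensity trend with a robust prior, the replicate number as a block, and each array left out.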

Additional observations from a re-analysis of the deposited data

How the results depend on the processing

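No member passed the adjusted threshold under any of the 11 alternatives run. The 9 differences kept their sign in all 60 values from the 7 alternatives that keep every array, with adjusted p from 0.560 to 0.991. Counts of members with an unadjusted p under 0.05 went from 0 to 1 with bright probe sets only, with an intensity trend and robust prior, and without variance moderation (Thra each time). Leaving out 1 array, which leaves a lone array assumed to vary like the others, gave 0 to 1, the 1 being Slc16a10 without TCQA replicate 1. Among bright probe sets 1 member did not overlap, since Slc16a10 was not among them. Unadjusted calls over all genes were 926 among bright probe sets and 947 with control probe sets kept, and 1103 to 1658 without 1 array. The depositors' criterion took 36 bright probe sets, 25 without moderation and 160 to 291 without 1 array, against 83. Adjusted calls over all genes were 0 to 4 without 1 array. The 4 arose without TCQA replicate 1 and were Pmch, Gh, Gabrq and a probe set with no symbol, named after their values were seen. The pathway genes with an unadjusted p under 0.05 were 4 to 7 without 1 array.

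With 1 array left out, 7 members changed sign at some point: Slco1c1 went from -0.094 to 0.36, Dio2 from -0.18 to 0.12, Dio3 from -0.15 to 0.0021, Crym from -0.025 to 0.29, Thrb from -0.27 to 0.070, Klf9 from -0.018 to 0.17 and Hr from -0.12 to 0.32. Of the other named genes, Slc17a4 went from -0.014 to 0.78, Dio1 from -0.34 to 0.19, Usp33 from -0.054 to 0.31, Tbl1x from -0.039 to 0.32, Gps2 from -0.034 to 0.25, Med1 from -0.19 to 0.29 and Ttr from -2.82 to 6.11.

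With the replicate number as a block, 0 members had an unadjusted p under 0.05 and no adjusted call arose. Of the 7 pathway genes with an unadjusted p under 0.05, 5 kept it: Slco1a4 (0.0536) and Alb (0.0584) lost it, and Slc7a5 (0.0467) and Trhr (0.00147) gained it. Over all genes 1425 had an unadjusted p under 0.05, 1141 of them shared with the 1386 without the block. The deviations of same-numbered arrays had a correlation of 0.05 across gene probe sets, so little shared deviation was seen over the whole array. This value cannot decide whether same-numbered arrays were paired, since pairing that affects only some genes could leave it low.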
